A study of Zea mays with 6 samples.

Results

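Below the handful of transcripts that dominate a developing maize kernel lies a second tier of very abundant ones. It was examined here as 39 loci of 45736 in the deposited tables. Loci were selected on the mean of the 2 wild-type libraries, from 1000 to under 10000 FPKM (fragments scaled to the length of the transcript and to the mapped total of the library). They also had to lie on chromosomes 1 to 10 and to span over 500 and up to 30000 bases. Of 69 loci in that band, 65 lie on a chromosome and 42 of these are long enough. The other 23 span 500 bases or less. A further 2 were left out because they overlap another row and 1 because it lies on chromosome 6 between 12 and 15 megabases, where a block of repeated short loci sits. No further locus in the band belonged to a chain of 3 or more loci of equal span with starts under 200 kilobases apart. The wild-type values that chose the loci are given as a description. All 39 passed the filter on low values, as their wild-type level alone ensured.

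RNA came from pooled kernels of Zea mays at 15 days after pollination. The groups were wild type and dek42-ref, an allele of the defective kernel gene Dek42, whose protein binds RNA and takes part in splicing. Wild-type replicates 1 and 3 (n = 2) were compared with dek42 replicates 1, 2 and 3 (n = 3), and replicate 2 of wild type was not analysed here. The genetic background and the number of plants behind each pool were not given in the sources used here. The p-values thus rest on the spread between pools, which may be technical. In pooled kernels, fewer cells of a type and less RNA per cell cannot be told apart.

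At this age the endosperm, the tissue that feeds the embryo, fills with starch and storage protein. Starchy endosperm cells give much of their transcription to a small number of genes, among them the zein seed-storage proteins and the enzymes that turn imported sucrose into starch. Other layers, such as the transfer cells at the base and the aleurone at the surface, have abundant transcripts of their own. Defective kernel mutants are known for small or poorly filled kernels. The deposited rows carry positions in B73 RefGen_v4 and no gene names, so no function was assigned to any of the 39 loci, no tissue marker could be looked up, and exon, intron and UTR annotation was not used. Loci are called here by span and chromosome, and the position is given at first mention.

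Values differ in scale between the genotypes, which touches every result. No read totals came with the values, so depth is unknown. Summed FPKM ran from 1121968 to 1463160 over the 5 libraries. Across the 20327 loci tested, the median log2 change in dek42 was 0.54 on the deposited scale and 0.0069 after median-ratio scaling (each library divided by its median ratio to the geometric mean of all libraries). A locus at a log2 change of 0.54 on the first scale therefore moved like the median locus. Changes are given as dek42 minus wild type on log2(FPKM + 1) from limma, with p-values adjusted by Benjamini-Hochberg over all loci tested and a threshold of 0.05. Folds are ratios of mean FPKM as deposited, and errors are SDs over the libraries of a genotype.

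The 39 loci were lower in dek42 more often than higher. On the deposited scale 13 fell (33.3%), where 2.29% of all loci tested fell, and 4 rose (10.3%), where 39.2% of all loci rose. After median-ratio scaling 15 fell (38.5%, background 8.26%) and none rose (background 8.03%), also at an unadjusted limma p under 0.05. The same 13 loci fell on both scales, 2 fell on the median-ratio scale alone, 4 rose on the deposited scale alone and 20 passed on neither. The median log2 change of the 39 was -0.24 as deposited and -0.88 after scaling. The bands on either side, with the other parts of the rule met, also held many falls after scaling. Of 717 loci from 100 to under 1000 FPKM in wild type, 24% fell and 7.67% rose. Of 8 loci at 10000 FPKM or more, 50% fell and 0 rose. Wild-type values both chose the loci and enter this comparison, and choosing on wild-type level favours falls, so these counts describe the loci and test nothing about them.

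**Figure D1:**
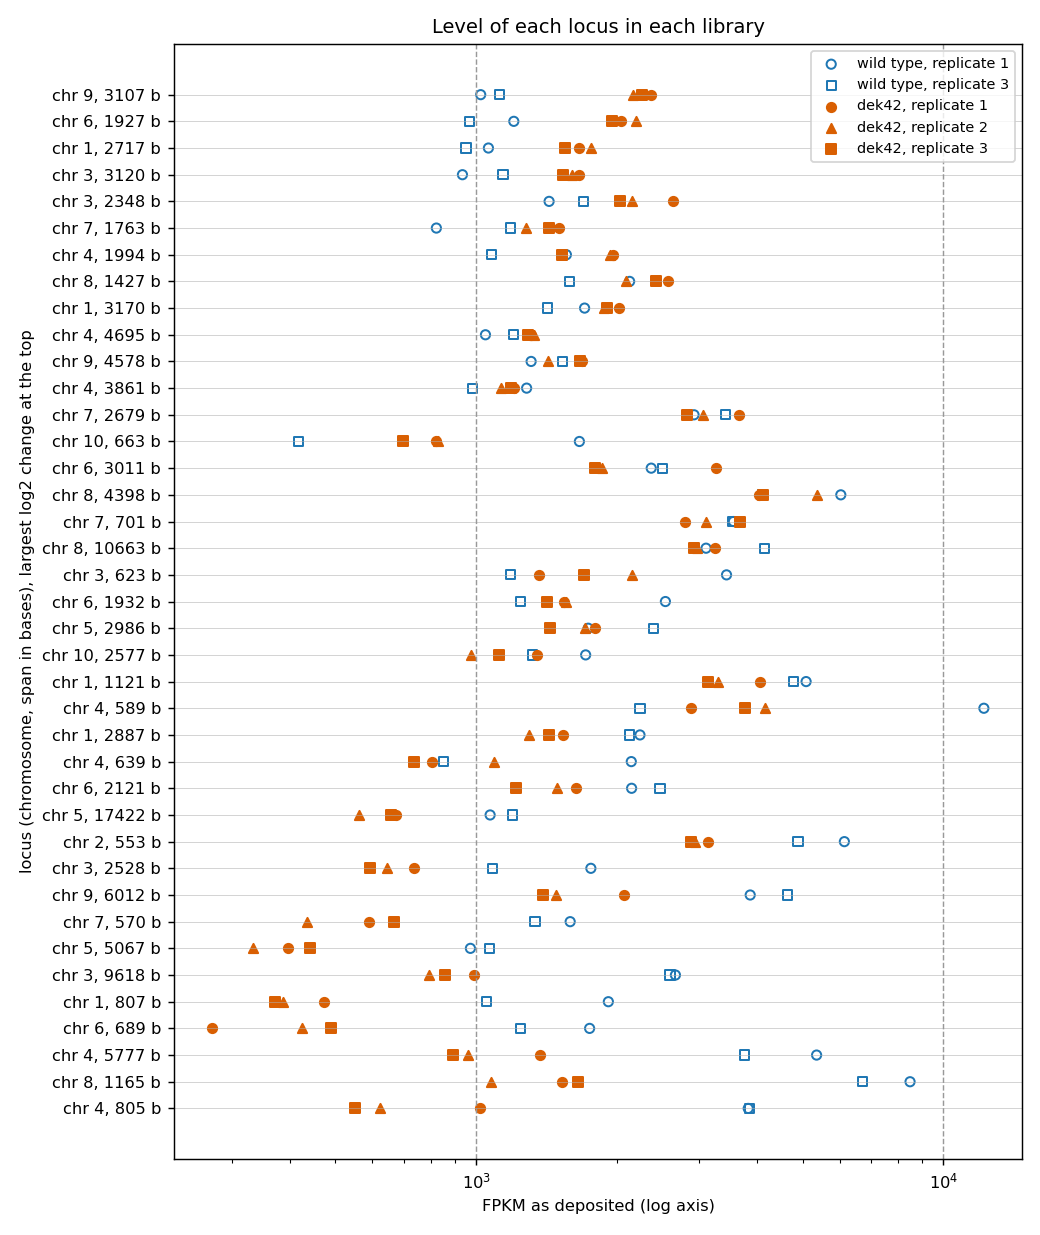
FPKM as deposited in each of the 5 libraries (horizontal log axis) for the 39 loci, ordered by log2 change and labelled by chromosome and span in bases (b). Open blue symbols are wild-type libraries, filled orange symbols are dek42 libraries, and dashed lines mark 1000 and 10000 FPKM. In the bottom rows all dek42 libraries lie left of both wild-type libraries, as in the 805-base locus on chromosome 4 with 549.6 to 1019 against 3821 and 3849 FPKM.

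A choice made in one library and a comparison made through the other keeps the choosing values themselves out of the comparison. Both libraries are wild type, so the loci are still chosen on a high wild-type level, which favours falls. The counts that follow are again a description. With the same rule applied to wild-type replicate 1 alone, 42 loci were chosen. Setting wild-type replicate 3 against dek42, 10 of these fell (23.8%, background 1.35%) and 6 rose (14.3%, background 28.5%), with a median log2 change of -0.13 where all loci had 0.56. With the roles exchanged, 38 loci were chosen in wild-type replicate 3. Setting wild-type replicate 1 against dek42, 15 of these fell (39.5%, background 2.3%) and 4 rose (10.5%, background 28.9%), with a median of -0.59 where all loci had 0.53. After median-ratio scaling 11 of the 42 fell (background 4.9%) and 17 of the 38 (background 7.41%), and none rose in either set, also at an unadjusted p under 0.05. In these fits the lone wild-type library is assumed to vary like the dek42 libraries, and both comparisons use the same dek42 libraries.

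Choosing the same band in dek42 gave more rises as deposited, and a share of falls above the background. The dek42 mean lay between 1000 and 10000 FPKM for 68 loci that met the other parts of the rule. As deposited, 33 of these rose (48.5%, background 39.2%) and 9 fell (13.2%, background 2.29%). After median-ratio scaling 7 rose (10.3%, background 8.03%) and 11 fell (16.2%, background 8.26%). The medians were 0.55 and -0.084. Choosing on dek42 level favours rises. The overlap was 29 loci, which is 74.4% of the wild-type choice and 42.6% of the dek42 choice. Some falls counted here are loci of the overlap, already counted as falls in the wild-type choice, so the choices are not independent. The other 10 loci of the wild-type choice had a dek42 mean under 1000 FPKM.

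**Figure D2:**
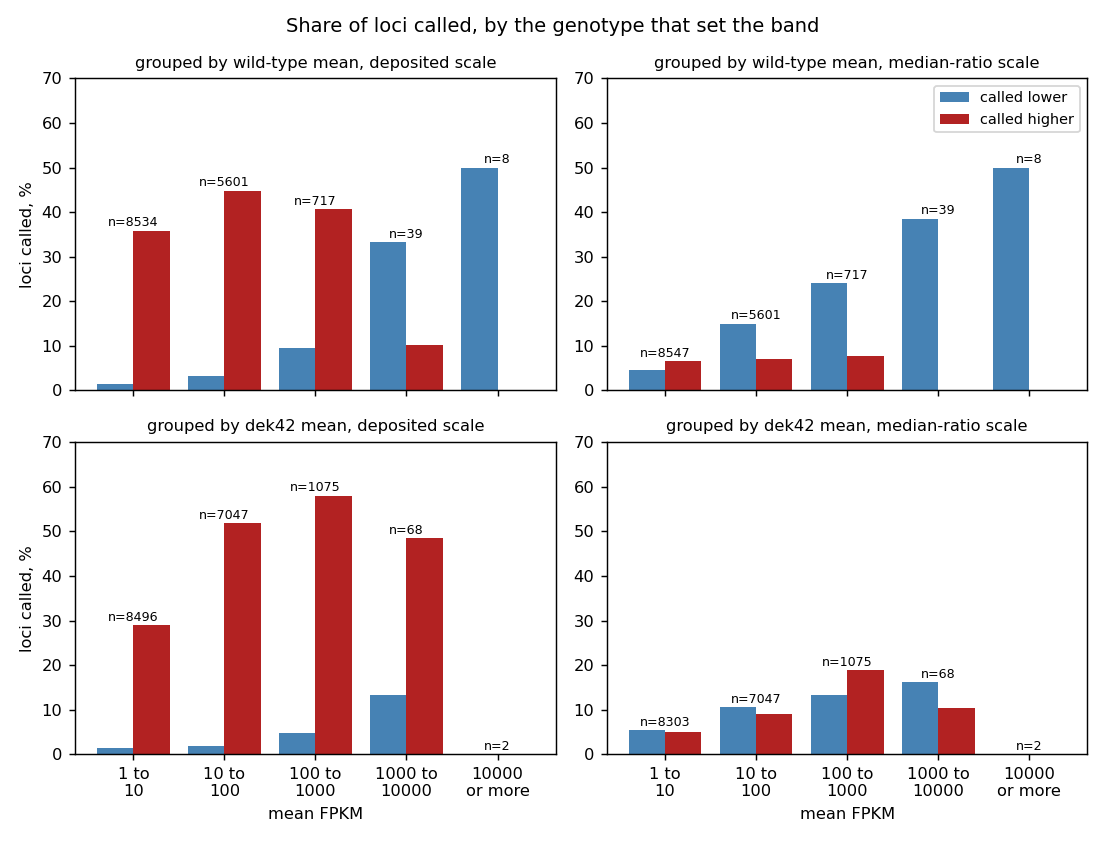
Percent of loci called lower (blue) or higher (red) in dek42 (vertical axis) by band of mean FPKM (horizontal axis), with bands set by the wild-type mean in the upper panels and by the dek42 mean in the lower ones, on the deposited (left) and median-ratio (right) scales. The number of loci is printed above each pair of bars, and all loci meet the other parts of the rule. With bands set by wild type, which favours falls, the share called lower on the deposited scale goes from 1.36% at 1 to 10 FPKM to 9.62% at 100 to 1000, 33.3% at 1000 to 10000 and 50% of 8 loci above that. With bands set by dek42, which favours rises, the shares called lower in the same bands are 1.51%, 4.74%, 13.2% and 0% of 2 loci.

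The share of all FPKM held by the 39 loci was 8.27% in wild-type replicate 1 and 7.58% in replicate 3. In dek42 it was 4.83%, 4.51% and 5.14% for replicates 1 to 3. Every dek42 library held less than either wild-type library. The means were 7.92% ± 0.49 (n = 2) and 4.83% ± 0.317 (n = 3). The 13 loci that fell on both scales held 3.18% ± 0.0178 in wild type and 0.951% ± 0.122 in dek42. The other 26 loci held 4.74% ± 0.472 and 3.88% ± 0.212. A share does not depend on how a library is scaled as a whole, but wild-type values chose the 39 loci, and the split into 13 and 26 follows the calls made from the same values. No test is given and nothing is read from the split.

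The largest drops were on chromosomes 8 and 4. At the 1165-base locus on chromosome 8, from 52707945 to 52709109, wild-type levels were 8482 FPKM (replicate 1) and 6718 FPKM (replicate 3). The dek42 levels were 1525, 1076 and 1649 FPKM for replicates 1 to 3, the order used from here on. It had the highest wild-type mean of the 39 and ranked 24 by dek42 mean. The fall was 5.37-fold (log2 change -2.44, SE 0.29, limma adjusted p = 0.00269, and 0.00678 after median-ratio scaling). The nearest rows on either side lie 308284 and 166572 bases away and are listed at 0 in all 5 libraries.

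The 805-base locus on chromosome 4, from 6292791 to 6293595, was at 3821 and 3849 FPKM in wild type and 1019, 622 and 549.6 in dek42. Wild-type libraries were nearly equal here, and the dek42 libraries were 1.85-fold apart without reaching the wild-type level. The fall was 5.25-fold (log2 change -2.45, SE 0.30, limma adjusted p = 0.00274). It is the only one of the 39 with another row of its own span and over 100 FPKM on its chromosome. That row, from 5897750 to 5898554, starts 395041 bases before it, is above the band at 11954 and 11526 FPKM. Its dek42 libraries had 1348, 1319 and 993 FPKM (limma adjusted p = 0.00136). The next row after the 6292791 locus, 39706 bases on and from 6333302 to 6334007, had mean levels of 23211 FPKM (wild type) and 2726 FPKM (dek42; limma adjusted p = 0.00243). How reads that fit several loci were divided was not given in the sources used here, so the level of each is uncertain.

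Also on chromosome 4, the 5777-base locus from 61315574 to 61321350 was at 5352 and 3755 FPKM in wild type and 1372, 960.3 and 894 in dek42. The genotypes did not overlap, although the wild-type libraries were 1.43-fold apart. It fell 4.23-fold (log2 change -2.08, SE 0.29, limma adjusted p = 0.00377). Its nearest rows, at 338081 and 58465 bases, had wild-type means under 10 FPKM and did not pass the test.

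A pair of loci on chromosome 6 lie 1177 bases apart and had different values in dek42. The 689-base locus from 40863631 to 40864319 was at 1749 and 1242 FPKM in wild type and 273, 423 and 489 in dek42, a fall of 3.79-fold (log2 change -1.94, SE 0.29, limma adjusted p = 0.00467). The 3011-base locus from 40865497 to 40868507 was at 2369.5 and 2502 FPKM in wild type and 3261, 1855 and 1796 in dek42 (log2 change -0.14, 95% interval -0.91 to 0.64, limma adjusted p = 0.752). Dek42 replicate 1 was the lowest library at the first and the highest at the second. The difference between the changes of the pair was not tested. Another of the 39 lies further along, of 2121 bases from 41696311 to 41698431, with 2151 and 2473 FPKM in wild type and 1637, 1489 and 1216 in dek42. It did not pass as deposited (limma adjusted p = 0.0538) and fell after median-ratio scaling (log2 change -1.32, limma adjusted p = 0.0261). That second call was lost without wild-type replicate 3, dek42 replicate 2 or dek42 replicate 3 (limma adjusted p of 0.0582, 0.0892 and 0.111).

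Further loci fell by 2.5-fold or more. The 807-base locus on chromosome 1, from 6797798 to 6798604, was at 1918 and 1052 FPKM in wild type and 472, 387 and 371 in dek42 (3.62-fold, limma adjusted p = 0.0051). Wild-type replicate 1 was 1.82-fold above replicate 3, and both were above every dek42 library. The 9618-base locus on chromosome 3, from 219979957 to 219989574, was at 2669.5 and 2599 FPKM in wild type and 991, 792 and 858 in dek42 (2.99-fold, limma adjusted p = 0.00298). The wild-type libraries differed by less than 3% at this locus, and the dek42 libraries were tight as well.

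On chromosome 5, the 5067-base locus from 163446992 to 163452058 was at 972 and 1069 FPKM in wild type and 396, 333 and 440.2 in dek42 (2.62-fold, limma adjusted p = 0.00321). It had the lowest dek42 mean of all 39, at 389.6 ± 53.7 FPKM. The 570-base locus on chromosome 7, from 164343315 to 164343884, was at 1589 and 1336 FPKM in wild type and 590.1, 435 and 666 in dek42 (2.59-fold, limma adjusted p = 0.0064). The 6012-base locus on chromosome 9, from 10906933 to 10912944, was at 3859 and 4632 FPKM in wild type and 2072, 1481 and 1388 in dek42 (2.58-fold, limma adjusted p = 0.0107). At all 3 loci the ranges of the genotypes stood apart. The call of the chromosome 9 locus held as deposited without any one library, but on the median-ratio scale it was lost without dek42 replicate 2 or 3 (limma adjusted p of 0.0615 and 0.0739). The chromosome 9 locus sits between close neighbours, 955 and 827 bases away, with wild-type means of 0.3 and 9.5 FPKM, neither of which passed the test.

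The remaining 4 of the 13 fell less, and each of their calls was lost on both scales in at least 1 fit that left out a library. On the median-ratio scale the highest limma adjusted p in such a fit was 0.0666, 0.117, 0.0582 and 0.0974, in the order in which the loci follow, each without dek42 replicate 3. The 2528-base locus on chromosome 3, from 147728101 to 147730628, was at 1759.9 and 1083 FPKM in wild type and 738, 644 and 592 in dek42 (2.16-fold, limma adjusted p = 0.0175). Without dek42 replicate 2 or 3 its limma adjusted p was 0.0558 or 0.0615. A row that ends 199 bases before it rose, from a mean of 4.7 to 21 FPKM (limma adjusted p = 0.00136). Whether reads were counted by strand was not given in the sources used here, so reads of such close neighbours may not be fully separate.

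The 553-base locus on chromosome 2, from 188849022 to 188849574, was at 6137 and 4884 FPKM in wild type and 3130.1, 2939 and 2889 in dek42 (1.85-fold, limma adjusted p = 0.041). It ranked 3 of the 39 by wild-type mean and 7 by dek42 mean. The call was lost without wild-type replicate 1 or without any dek42 replicate (limma adjusted p of 0.0794 to 0.147). The 17422-base locus on chromosome 5, from 172412994 to 172430415, is the longest of the 39 and had 1071 and 1194 FPKM in wild type and 672, 562 and 658 in dek42 (1.79-fold, limma adjusted p = 0.0128). Only the fit without dek42 replicate 2 lost this call, at a limma adjusted p of 0.0518. The 2887-base locus on chromosome 1, from 199715757 to 199718643, was at 2242 and 2130.3 FPKM in wild type and 1532, 1299 and 1429 in dek42 (1.54-fold, limma adjusted p = 0.0498). It lost its call without any one of the 5 libraries (limma adjusted p of 0.0608 to 0.164), although its libraries were within 1.18-fold of each other in each genotype.

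**Figure D3:**
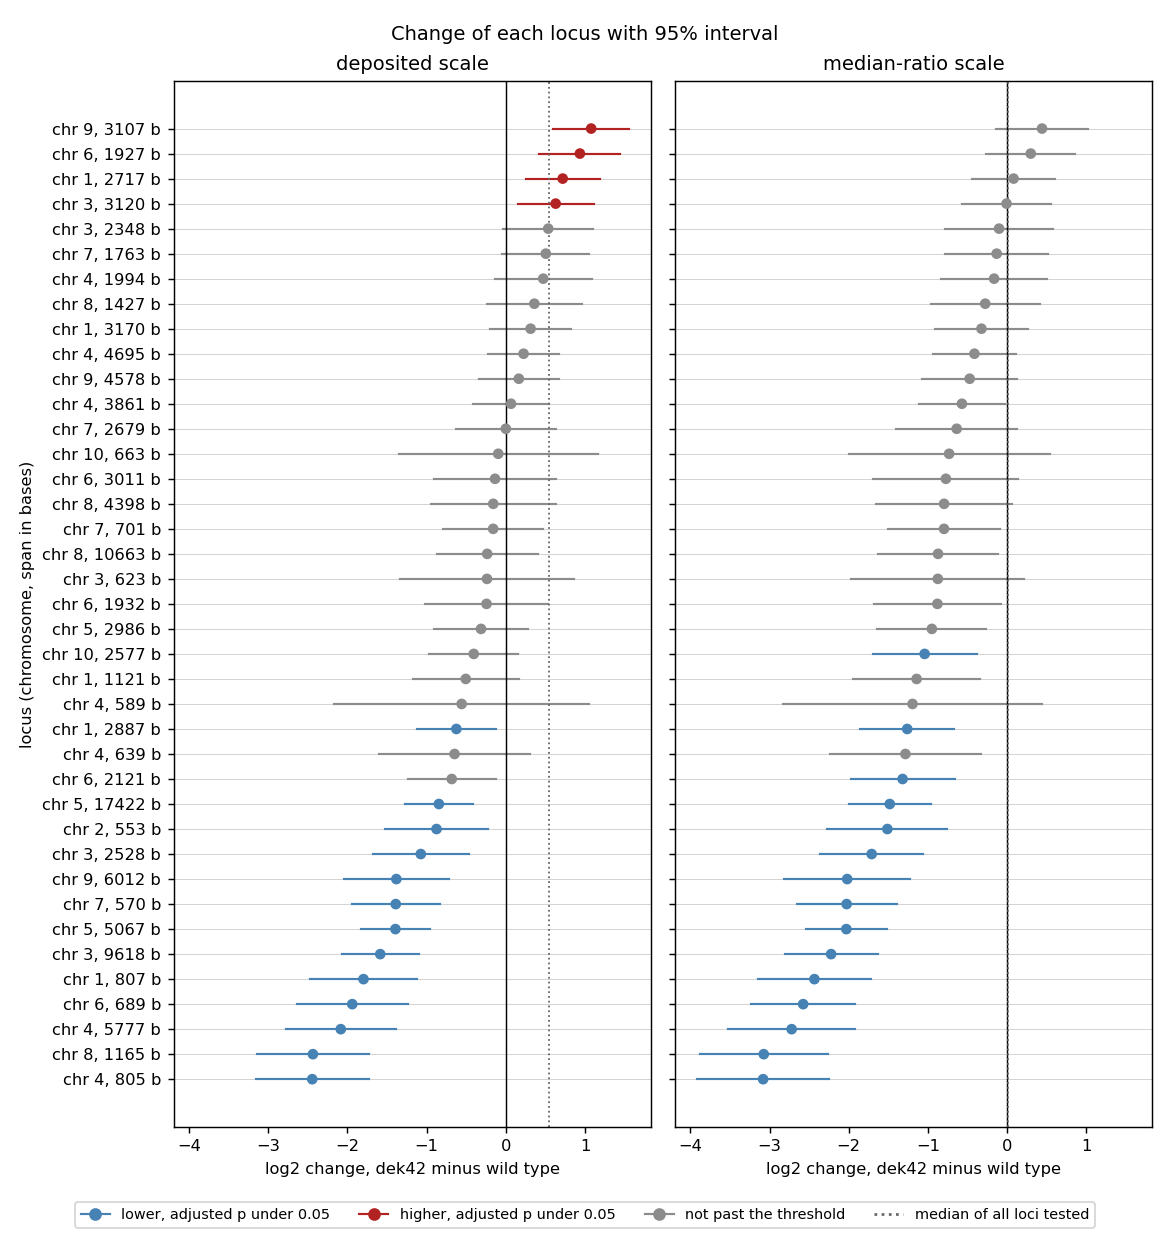
Log2 change of each of the 39 loci, dek42 minus wild type (horizontal axis), with its 95% interval from limma on the deposited (left) and median-ratio (right) scales. The intervals are not adjusted for the number of loci. Rows are ordered and labelled by chromosome and span in bases (b), blue marks loci called lower, red loci called higher and grey loci not past the threshold, and the dotted line is the median of all loci tested at 0.54 (left) and 0.0069 (right). The 4 red loci at the top left are grey on the right, where their values run from -0.01 to 0.44.

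Loci that rose on the deposited scale moved by 1.54-fold to 2.11-fold. The 3107-base locus on chromosome 9, from 90421942 to 90425048, was at 1023 and 1122 FPKM in wild type and 2361, 2166 and 2264 in dek42 (log2 change 1.08, SE 0.20, limma adjusted p = 0.00883). Its call on this scale held without any one library, and its wild-type and dek42 values stood apart on both scales. After median-ratio scaling the change was 0.44 and did not pass (limma adjusted p = 0.238). The 1927-base locus on chromosome 6, from 155771538 to 155773464, was at 1204 and 967 FPKM in wild type and 2046, 2203 and 1953 in dek42 (1.90-fold, limma adjusted p = 0.0161, and 0.403 after scaling). The call was lost without dek42 replicate 2 or 3 (limma adjusted p of 0.0582 and 0.0524).

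The other two rises were close to the median change of all loci. The 2717-base locus on chromosome 1, from 46381296 to 46384012, was at 1062 and 951 FPKM in wild type and 1659, 1762 and 1548 in dek42 (log2 change 0.72, limma adjusted p = 0.0273, and 0.817 after scaling). The 3120-base locus on chromosome 3, from 170807230 to 170810349, was at 935 and 1142 FPKM in wild type and 1662, 1604 and 1532 in dek42 (log2 change 0.63, limma adjusted p = 0.0442). Scaling turned the latter value to -0.01 (limma adjusted p = 0.986). As deposited, the first lost its call without wild-type replicate 3 or any dek42 replicate (limma adjusted p of 0.0591 to 0.0904), and the second without wild-type replicate 1 or any dek42 replicate (0.107 to 0.117).

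One more locus passed on the median-ratio scale alone. The 2577-base locus on chromosome 10, from 4272267 to 4274843, was at 1715 and 1319.8 FPKM in wild type and 1348, 973 and 1118 in dek42. The genotypes overlapped as deposited (limma adjusted p = 0.2), and after scaling its adjusted p was 0.0486 in limma with a log2 change of -1.04. It was lost without any one of the 5 libraries (limma adjusted p of 0.0518 to 0.152).

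The 20 loci that passed on neither scale included the 5 most abundant in dek42. The 4398-base locus on chromosome 8, from 176808612 to 176813009, was at 6030.3 and 4104 FPKM in wild type and 4021, 5354 and 4108 in dek42. It ranked 1 of the 39 by dek42 mean, at 4494 ± 745 FPKM, and 4 by wild-type mean. Its log2 change was -0.16 with a 95% interval of -0.95 to 0.63, which takes in a fall of nearly 2-fold as well as a rise. The 1121-base locus on chromosome 1, from 180447017 to 180448137, was at 5082 and 4778 FPKM in wild type and 4043, 3300.4 and 3130.4 in dek42. All its dek42 libraries were below both wild-type libraries, yet its limma adjusted p was 0.181 as deposited and 0.0638 after scaling.

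Both the 701-base locus on chromosome 7, from 25228778 to 25229478, and the 2679-base locus on the same chromosome, from 170973756 to 170976434, stayed close to their wild-type level as deposited. The former had 3553 and 3539.8 FPKM in wild type and 2805, 3103 and 3676 in dek42 (95% interval of the log2 change -0.79 to 0.47). The latter had 2926 and 3413 FPKM in wild type and 3648, 3057 and 2829 in dek42 (95% interval -0.63 to 0.63). After median-ratio scaling the log2 changes were -0.80 and -0.64 (limma adjusted p of 0.109 and 0.201). On that scale every dek42 library lay below both wild-type libraries at each locus. The 701-base and 2679-base loci ranked 4 and 5 by dek42 mean, after ranks 10 and 11 in wild type.

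Wild-type libraries were over 2-fold apart at 5 of these loci, none of which passed on either scale when all 5 libraries were fitted. What passes at them can depend on which wild-type library is kept. The 589-base locus on chromosome 4, from 35888518 to 35889106, was at 12204 and 2243 FPKM in wild type, 5.44-fold apart, and 2883, 4149 and 3753 in dek42. The dek42 libraries lay between the wild-type ones, and the 95% interval of the log2 change ran from -2.17 to 1.06. This locus is the second most abundant of the 39 in both genotypes by its mean, and its wild-type place rests on replicate 1.

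The 663-base locus on chromosome 10, from 82482085 to 82482747, was at 1663 and 417 FPKM in wild type and 819, 829 and 696 in dek42. The 623-base locus on chromosome 3, from 156958515 to 156959137, was at 3434 and 1186 FPKM in wild type and 1363, 2158 and 1704 in dek42. The 639-base locus on chromosome 4, from 7985198 to 7985836, was at 2148 and 852 FPKM in wild type and 803, 1089.6 and 735 in dek42. At all of these, replicate 1 was the higher wild-type library and the genotypes overlapped as deposited. The same held for the 1932-base locus on chromosome 6, from 127109171 to 127111102, with 2541 and 1246 FPKM in wild type and 1539, 1555 and 1418 in dek42. After median-ratio scaling every dek42 library lay below both wild-type libraries at the 639-base and 1932-base loci. As deposited, without wild-type replicate 1 the log2 change was positive at all 5 loci, with 0.66 at 589 bases, 0.90 at 663, 0.53 at 623, 0.019 at 639 and 0.27 at 1932. Without wild-type replicate 3 it was negative at all 5, in the same order -1.78, -1.09, -1.004, -1.31 and -0.76.

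**Figure D4:**
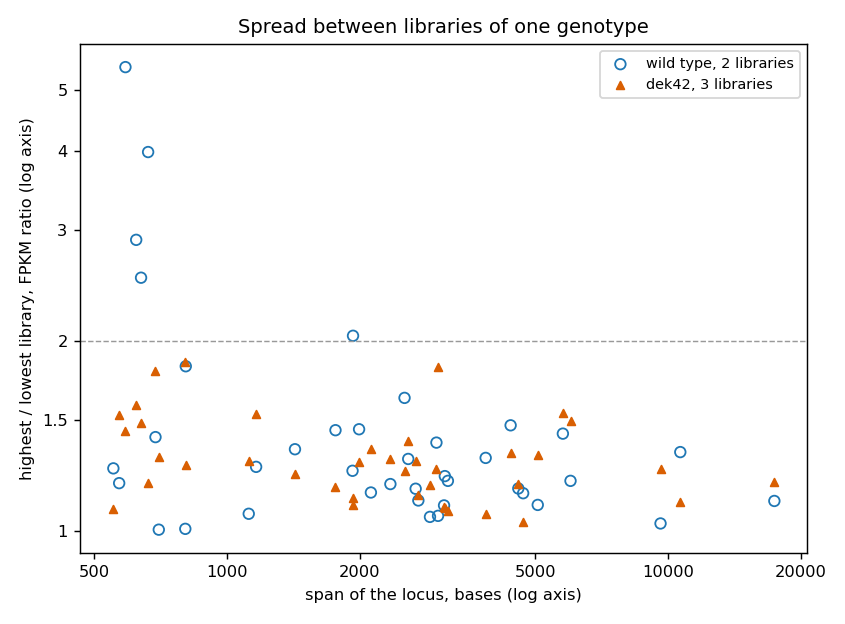
Ratio of the highest to the lowest library of a genotype (vertical log axis) against the span of the locus in bases (horizontal log axis) for the 39 loci. Open blue circles are the 2 wild-type libraries, filled orange triangles the 3 dek42 libraries, and the dashed line marks a ratio of 2. The 5 circles above the line include 4 loci of 589 to 663 bases, at 2.52 to 5.44, while no dek42 triangle passes the line.

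Spread between the wild-type libraries differed by span. Of the 10 loci under 1000 bases, 4 had wild-type libraries over 2-fold apart and the median ratio was 1.62. It was 1.26 for the 15 loci of 1000 to under 3000 bases and 1.18 for the 14 longer ones. In dek42 the median coefficient of variation was 19.4%, 11.4% and 9.38% in the same classes. Over all 39 it was 13.3%, with a range of 1.63% to 36%, beside 15.9% for all loci tested and 9.65% for the 68 loci chosen in the same band by dek42 mean. As deposited, 5 of the short loci fell, where 3.15% of the other loci of that span class did, and none rose (38% of the others did). Of the middle class 3 fell (2.3% of the others) and 2 rose (38.7%), and of the long class 5 fell (1.97%) and 2 rose (40.3%). After median-ratio scaling 5 fell in every class, where 5.46%, 7.29% and 9.12% of the others did, and none rose. The part of span in these changes was not tested.

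Small positive changes as deposited made up most of the rest, and each turned negative after median-ratio scaling. The 2348-base locus on chromosome 3, from 136288385 to 136290732, went from a mean of 1566 to 2277 FPKM, with every dek42 library above both wild-type libraries (limma adjusted p = 0.109). The 1763-base locus on chromosome 7, from 177324034 to 177325796, went from 1004 to 1405 FPKM, again without overlap (limma adjusted p = 0.118). The 3170-base locus on chromosome 1, from 202992961 to 202996130, and the 4695-base locus on chromosome 4, from 15973747 to 15978441, had dek42 means 1.24 and 1.17 times the wild-type means, also without overlap, and did not pass.

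Wild-type and dek42 ranges overlapped as deposited at the others with positive values. These were the 1994-base locus on chromosome 4 (198621667 to 198623660, 1318 ± 342 and 1810.2 ± 245 FPKM) and the 1427-base locus on chromosome 8 (14951975 to 14953401, 1856 ± 388 and 2365 ± 246 FPKM). The 4578-base locus on chromosome 9 (21923412 to 21927989) averaged 1421 ± 155 and 1592 ± 148 FPKM. The 3861-base locus on chromosome 4 (164049989 to 164053849) averaged 1132 ± 212 and 1175 ± 38.4 FPKM. The last had dek42 libraries within 1.07-fold of each other, and a 95% interval of the log2 change from -0.42 to 0.55.

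The remaining loci had negative values that did not pass on either scale. The 2986-base locus on chromosome 5, from 69975364 to 69978349, had 2067 ± 467 FPKM (wild type) and 1649 ± 188 FPKM (dek42; limma adjusted p = 0.329, and 0.0681 after scaling). The 10663-base locus on chromosome 8, from 109459049 to 109469711, averaged 3622 ± 732 FPKM in wild type and 3048 ± 175 in dek42 (limma adjusted p = 0.497, and 0.105 after scaling).

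Counted over all 39 as deposited, every dek42 library lay below both wild-type libraries at 15 loci (38.5%, where 5.54% of all loci tested did). Every dek42 library lay above both at 8 (20.5%, where 60.9% did), and the ranges overlapped at 16. After median-ratio scaling these counts were 28, 2 and 9. The shares of all loci were not counted on that scale, and choosing on wild-type level favours falls, so nothing is read from the scaled counts. The 13 loci that fell lie on 9 of the 10 chromosomes, chromosome 10 being the exception, with at most 2 on any one. Their spans run from 553 to 17422 bases, the full range of the 39. The median span of the 39 was 2528 bases, close to the 2623 bases of the 34249 loci that meet the rule apart from its band.

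Most neighbouring rows were low in wild type, as most rows in general were, while a larger share of neighbours reached 100 FPKM. Of 76 neighbours that are not among the 39, 42 had a wild-type mean under 1 FPKM (55.3%, beside 61.2% of all rows on the chromosomes). A mean of 100 FPKM was reached by 4 (5.26%, beside 2.16%) and one of 1000 by 1, for which no share of all rows was counted. The chromosome 6 pair, which lie next to each other, are not among the 76. Of the 37 neighbours tested as deposited, 2 fell (5.41%, background 2.29%) and 11 rose (29.7%, background 39.2%). After median-ratio scaling 4 of 36 fell (11.1%, background 8.26%) and 1 rose (2.78%, background 8.03%). Next to the 13 loci that fell, 12 neighbours were tested, of which 1 fell and 3 rose as deposited, and 2 fell and 1 rose after scaling. The neighbour that fell as deposited is the chromosome 4 row of 23211 FPKM given above. No pair among the 39 shared a span.

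At the edges of the band the choice is a matter of degree. Just inside the lower limit were the 1763-base locus on chromosome 7, the 2717-base locus on chromosome 1 and the 5067-base locus on chromosome 5, with wild-type means of 1004, 1007 and 1021 FPKM. Just outside were a locus of 963 FPKM at chromosome 4, 44843620 to 44845888, one of 979.97 FPKM at chromosome 7, 42951694 to 42954861, and one of 983 FPKM at chromosome 2, 2799860 to 2803017. Their dek42 means were 1882, 580.9 and 1534 FPKM. The upper limit falls in a gap, between 7600.4 FPKM and the 805-base row of 11740.0 FPKM. After that row came a locus at chromosome 4, 22579360 to 22580152, with 11962 FPKM, and one at chromosome 3, 139335174 to 139335830, with 12293. Their dek42 means were 2165 and 5775 FPKM.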

How the data were processed

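One table per library gave FPKM by locus, per the file headers, and the authors' values were used as deposited. The submitters' processing notes list TopHat2 2.1.0, Cufflinks 2.2.1 and B73 RefGen_v4; the role and settings of each were not given in the sources used here. Files of 5 of 6 libraries were analysed. The loci, lists and tests were chosen with earlier results of these data known. Positions listed in more than one row were left out.

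Loci reaching 1 FPKM in 2 or more libraries were fitted with limma 3.58.1 in R 4.3.3 (lmFit, eBayes with a trend) on log2(FPKM + 1), genotype as the only term, two-sided, with Benjamini-Hochberg adjustment over all loci tested genome-wide. The pseudocount understates changes of low loci and hardly touches loci near 1000 FPKM. Depth is unknown, so FPKM carries no counting interval. Alternatives were other scalings, pseudocounts (0.1, 0.5), filters, no trend, each library left out, a replicate block, and other choices of loci. Every one of the 39 loci is named, those called on both scales, the 5 most abundant of each genotype and loci at the edges with fuller values.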

Additional observations from a re-analysis of the deposited data

How the results depend on the processing

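As deposited, 9 to 16 fell when one library was left out, and 10 to 17 fell under every other scaling, pseudocount, filter, variance model and the replicate block, against 13. The 4 rises became 0 under median-ratio scaling, quantile normalization and rescaling without the 50 most abundant loci, 2 without a filter, 1 under the replicate block and 1 to 4 with one library left out. On the median-ratio scale 8 to 18 fell with one library left out and 8 under the block, against 15; the lowest came without dek42 replicate 3. Leaving out the 5 loci with wild-type libraries over 2-fold apart was an alternative chosen after seeing the data. None of the 5 had passed on either scale, so leaving them out could not change a count and shows nothing. Choosing by the dek42 mean (68 loci) gave 33 rises and 9 falls as deposited, and 7 and 11 after scaling. The mean of both genotypes, of which wild-type values are a part, chose 51 loci. As deposited 15 of these rose (29.4%, background 39.2%) and 12 fell (23.5%, background 2.29%), so rises outnumbered falls. After median-ratio scaling 2 rose (3.92%, background 8.03%) and 14 fell (27.5%, background 8.26%).

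The median log2 change of -0.24 became -0.88, -0.88 and -0.90 under the 3 scalings, and -0.58 to -0.16 with one library left out. It was -0.59 for loci chosen in wild-type replicate 3 and 0.55 for loci chosen by the dek42 mean. On the median-ratio scale it was -1.19 to -0.85 with one library left out, -1.20 for loci chosen in wild-type replicate 3 and -0.084 for loci chosen by the dek42 mean. The share of summed FPKM was 3.1 percentage points lower in dek42, and 4.1 lower after quantile normalization (a difference of -4.1).

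Over all loci tested, rises and falls numbered 1610 and 1657 after median-ratio scaling, 1575 and 1590 after quantile normalization and 1175 and 1352 after rescaling without the 50 most abundant. With one library left out they were 4894 to 6883 and 271 to 463, and 352 to 1617 and 299 to 1476 on the median-ratio scale. Replicates 1 and 3 occur in both genotypes, and whether the numbers mark a pairing is unknown. Deviations of same-numbered libraries from the genotype mean correlated with r of 0.0057 (replicate 1) and -0.015 (replicate 3) across loci. Differently numbered libraries gave r of -0.019 to 0.019. With replicates 1 and 3 alone, the wild-type deviations mirror each other. The r values are therefore not separate checks and cannot decide whether libraries were paired. The replicate block, which leaves 1 residual degree of freedom, gave 4206 rises and 294 falls, and 197 and 166 on the median-ratio scale.

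Of the 17 loci called as deposited, 1 changed sign under any alternative, the 3120-base locus on chromosome 3: -0.007, -0.064 and -0.024 under median-ratio, quantile and top-50 rescaling. On the median-ratio scale it was 0.027 under the block and -0.20 to 0.16 with one library left out. In the same order of scalings, 9 loci that did not pass also turned negative. The values were -0.32, -0.51 and -0.34 for the 3170-base locus, -0.10, -0.18 and -0.12 for the 2348-base locus, and -0.41, -0.51 and -0.43 for the 4695-base locus. They were -0.57, -0.54 and -0.59 for the 3861-base locus, -0.16, -0.23 and -0.18 for the 1994-base locus, and -0.64, -0.43 and -0.65 for the 2679-base locus. They were -0.13, -0.25 and -0.15 for the 1763-base locus, -0.28, -0.35 and -0.29 for the 1427-base locus, and -0.47, -0.48 and -0.49 for the 4578-base locus. In the median-ratio and top-50 rescaling they follow from one factor per library, which lowers dek42 against wild type at every locus.

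With one library left out, signs also differed at uncalled loci. The ranges were -1.004 to 0.53 (623 bases), -1.31 to 0.019 (639 bases), -1.78 to 0.66 (589 bases), -0.13 to 0.26 (3861 bases), -0.42 to 0.015 (3011 bases), -0.76 to 0.27 (1932 bases), -0.11 to 0.11 (2679 bases), -0.44 to 0.12 (4398 bases) and -1.09 to 0.90 (663 bases). The sign turned without wild-type replicate 1 at the 623-, 639-, 589-, 1932-, 4398- and 663-base loci, without wild-type replicate 3 at the 3861-base locus, without dek42 replicate 3 at the 3011-base locus, and without wild-type replicate 1 or dek42 replicate 1 at the 2679-base locus. The cause was not tested. Depth is unknown and wild type has 2 libraries, so a single wild-type library can decide a value.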

Other observations

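Wild-type replicate 1 was above replicate 3 at short loci outside the 39 as well. This was looked for after the values of the 39 were seen, and the 39 are left out of the counts here. The loci meet the rule apart from its band and average 100 FPKM or more in wild type. Replicate 1 was over 2-fold higher at 8 of 24 loci spanning over 500 to 700 bases (33.3%), and replicate 3 at 0. The shares with replicate 1 over 2-fold higher were 24.4% of 41 loci of over 700 to 1000 bases, 3.68% of 299 of over 1000 to 3000 bases and 1.66% of 361 longer ones. The median ratio of replicate 1 to replicate 3 was 1.39, 1.17, 1.08 and 0.997 in these classes.

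Among the 24 shortest loci, dek42 replicate 2 was over 2-fold above replicate 1 at 1, and no other pair of dek42 replicates was over 2-fold apart at any. The median ratios there were 1.01 for dek42 replicate 1 over 2, 1.06 for 1 over 3 and 1.06 for 2 over 3. The loci were chosen by their wild-type mean, which the wild-type libraries themselves make up. The locus just above the band on chromosome 3, of 657 bases, had 18864 FPKM in wild-type replicate 1 and 5722 in replicate 3. Its dek42 libraries had 5134, 5677 and 6513 FPKM. Whether this lies in the libraries or in the kernels pooled for them was not tested.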
